A study of Mus musculus with 6 samples.

Results

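Long intergenic noncoding RNAs (lincRNAs) are transcripts of genes that lie between protein-coding genes and hold no long reading frame. Of 20199 genes in a deposited count table of mouse aortic smooth muscle cells, 708 carried the biotype lincRNA. The 317 of them with at least 60 counts summed over the 6 libraries are described here, so the members were chosen by their total counts, and their abundance is given as a description. The rule does not use the genotype comparison, though it was chosen with earlier results of these data known. The samples were C57B6 mice aged 12 weeks. The 3 control samples were WT/mTmG/Myh11ERT2 and the other 3 were miR-21fl/fl mTmG/Myh11ERT2, labelled miR21 -/- and called knockout here. Both genotypes thus carried mTmG, a membrane fluorescence reporter of Cre activity, and Myh11ERT2, an inducible Cre driven by the smooth muscle myosin gene, so that deletion is limited to cells that use this promoter. The sources used here do not say whether or when an inducer was given, nor if each sample is a separate animal. So p-values speak only to the spread between these samples, which may be technical. The comparison asks which lincRNAs differ in these cells when the miR-21 alleles are floxed.

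LincRNAs are made by RNA polymerase II and are often capped, spliced and polyadenylated like messenger RNA. Some stay in the nucleus and build nuclear bodies or act on chromatin, some carry small nucleolar RNAs or microRNAs in their introns, and many have no known function. In smooth muscle, Carmn, which lies beside the miR-143 and miR-145 genes, is known for high expression in this cell type and for its part in keeping the contractile state.

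Library totals ran from 17123748 to 28610649 counts. Summed over 10 smooth muscle markers, levels were 45469 to 51962 CPM (counts scaled to a common library size, with TMM factors) in the 6 libraries. The 8 endothelial markers summed to 71.6 to 95.2 CPM, the 8 adventitial fibroblast markers to 54.1 to 104 CPM, and the 9 macrophage and leukocyte markers to 1.54 to 8.19 CPM. Of the 5 nerve and Schwann markers, 3 were in the table and summed to 616 to 721 CPM. The 5 striated muscle markers summed to 45.7 CPM in wild-type replicate 1 and to 22.7 to 31.6 CPM in the other 5 libraries. Their part in any result below was not tested. Vmp1, whose 3′ end holds the Mir21a hairpin at chr11:86584067-86584158 (minus strand), was at 47.9 ± 4.4 CPM (SD, n = 3) in wild type and 54.5 ± 4.33 CPM in the knockout. Mir21a itself was not analysed here, so the genotype was not checked by the targeted gene. Wild-type replicate 1 stood apart, with Pearson correlations of log2 CPM across genes from 0.961 to 0.971 with the others, which reached 0.980 to 0.986 among themselves. In bulk samples, fewer cells of a type and less RNA per cell cannot be told apart.

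LincRNAs took a small share of each library, and Malat1 took about as much of it as the other 316 together. The share was 1.35%, 0.654% and 0.752% of counts in the 3 wild-type libraries, in order of replicate, and 0.615%, 0.963% and 0.722% in the 3 knockout libraries. Wild-type replicate 1 and knockout replicate 2 were the highest, and the genotypes overlapped (0.920% ± 0.379 in wild type and 0.766% ± 0.179 in knockout, SD, n = 3). Malat1 held 52.4% of all lincRNA counts and the 10 most abundant genes 85.9%. Without Malat1 the shares were 0.521%, 0.340% and 0.369% in wild type and 0.326%, 0.462% and 0.363% in knockout. The median lincRNA had 188 counts over the 6 libraries, and 197 of the 317 had fewer than 300.

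**Figure D1:**
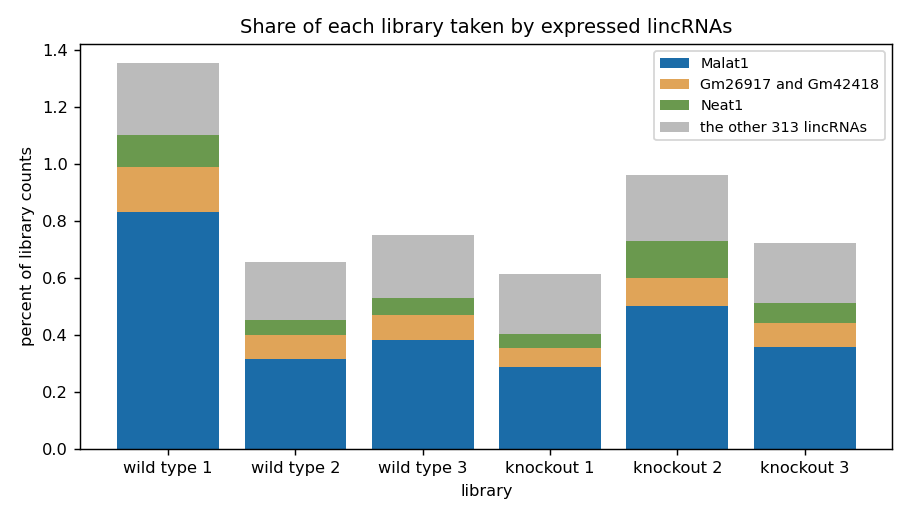
Percent of each library's counts (vertical axis) taken by the 317 expressed lincRNAs, stacked as Malat1, the pair Gm26917 and Gm42418, Neat1 and the other 313, for each of the 6 libraries. The bars of wild-type replicate 1 (1.35%) and knockout replicate 2 (0.963%) are the tallest, and most of their excess lies in the Malat1 segment.

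The most abundant lincRNAs included RNAs that are known in most tissues. Malat1, a nuclear speckle RNA (chr19:5795690-5802672, minus strand), was at 8484, 3226 and 3835 CPM in wild-type replicates 1 to 3 and 2831, 5014 and 3523 CPM in knockout replicates 1 to 3. Wild-type replicate 1 lay far above the rest, and the other 5 libraries mixed (log2 fold change from edgeR, knockout minus wild type, like each value given with an SE, −0.45 ± 0.36 SE, adjusted p = 0.786). Without that library the fitted value was 0.10. Neat1, the scaffold of paraspeckles (chr19:5824708-5845478, minus strand), was at 1143, 519 and 612 CPM in wild-type replicates 1 to 3 and 486, 1307 and 688 CPM in knockout replicates 1 to 3. Here wild-type replicate 1 and knockout replicate 2 were both high, and the fitted value (0.13 ± 0.38 SE) became −0.37 without knockout replicate 2. Malat1 and Neat1 are neighbours on chromosome 19. 2900097C17Rik, which RefSeq places as Norad, an RNA known to bind Pumilio proteins (chr2:156388065-156392979, minus strand), was at 176, 322 and 333 CPM in wild-type replicates 1 to 3 and 369, 294 and 310.3 CPM in knockout replicates 1 to 3. It was lowest in wild-type replicate 1, the reverse of Malat1, and its fitted value of 0.23 ± 0.23 SE became −0.01 without that library. 1700020I14Rik, RefSeq's Oip5os1 and known as Cyrano, an RNA that carries a long site for miR-7, was also lowest there (74.0, 112 and 122 CPM in wild-type replicates 1 to 3 and 142, 115 and 121 CPM in knockout replicates 1 to 3).

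**Figure D2:**
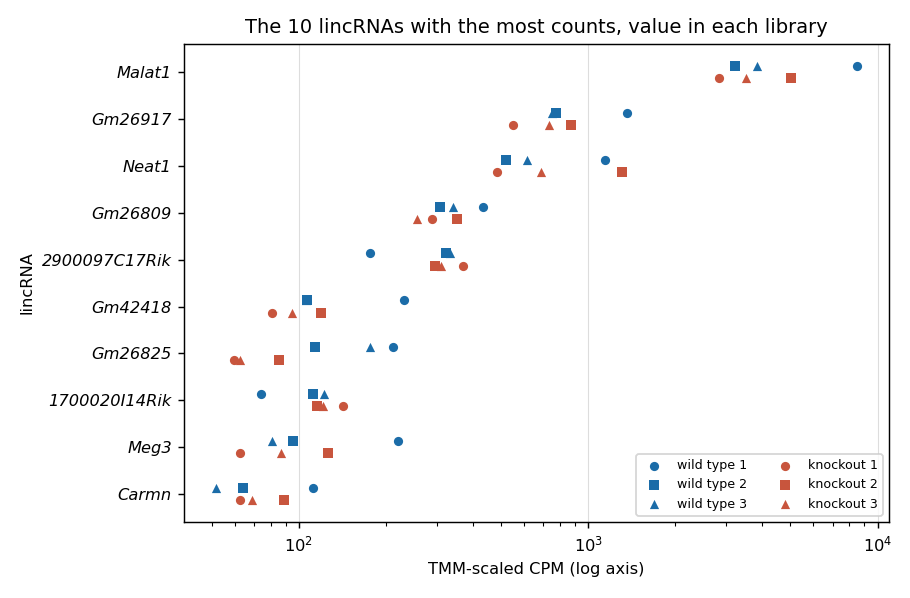
TMM-scaled CPM (horizontal log axis) of the 10 lincRNAs with the most counts, 1 point per library, circles, squares and triangles for replicates 1, 2 and 3. In Gm26825 all 3 wild-type points (113 to 211) lie above the 3 knockout points (59.7 to 85.2), while in the other 9 the genotypes overlap.

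A pair of the most abundant members lies in a ribosomal RNA repeat on chromosome 17. Gm26917 (chr17:39843013-39846341, plus strand) was at 1363, 774 and 751 CPM in wild-type replicates 1 to 3 and 550.3, 871 and 729 CPM in knockout replicates 1 to 3. Gm42418 (chr17:39846958-39848788, plus strand), which RefSeq lists as the pseudogene Rn18s-rs5, overlaps the ribosomal RNA feature CT010467.1 on the opposite strand. Its values were 230.2, 107 and 105 CPM in the wild-type libraries, and 80.9, 119.6 and 94.3 CPM in the knockout ones, all counts were fractional, and the sources used here do not say if strand was kept in counting, so its count is uncertain. Both were highest in wild-type replicate 1, as was CT010467.1 (11448 CPM, against 5955 to 9299 in the other 5 libraries). Neither passed (log2 fold changes −0.43 ± 0.25 SE and −0.58 ± 0.30 SE, with edgeR adjusted p = 0.778 for each). Without wild-type replicate 1 the values were −0.09 and −0.11. Gm26809, 1219 bases from Lsm8 on the same strand, was the fourth most abundant, at 433, 308 and 341 CPM in wild-type replicates 1 to 3 and 289, 353 and 256 CPM in knockout replicates 1 to 3, and the groups overlapped.

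Per transcript length the order differed. An exon length could be taken from GENCODE vM1 for 105 members whose span there was within 10% of the deposited span. The order below holds only among these 105. Abundant members such as Gm26917, Gm26809, 2900097C17Rik, Gm26825 and Gm42418 had no such length and are not ranked. On the scale of mean CPM per kilobase over the 6 libraries, Malat1 led with 642, followed by Gm10076 with 69.7, Gm12840 with 43.2 and Neat1 with 38.2. The long Meg3 stood at 6.19 and 1700020I14Rik at 13.8. Malat1 ranged from 462 to 1215 CPM per kilobase in wild type and from 405 to 718 in knockout. The next genes, Gm10076 (61.7 to 98.1 in wild type and 61.6 to 65.3 in knockout) and Gm12840 (34.9 to 57.0 and 31.6 to 52.4), did not overlap Malat1 in any library. The count of Gm10076 is uncertain, since 200 of its 377 bases aligned on the same strand to the coding gene Gm3699, at 98.5% identity. The part of Gm3699 reads in it was not tested. Gm12840 and Neat1 (25 to 55.0 and 23.4 to 62.9) did not separate beyond their spread.

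No lincRNA passed the genotype comparison in edgeR. Of the 317 members, 310 passed the low-count filter, and 0 of these had an adjusted p under 0.05, against 0% of the 15185 genes tested. The smallest adjusted p of a lincRNA was 0.398, for Gm26825, and of any gene 0.122. DESeq2 called 1 lincRNA, Gm26825, where it called 0.454% of all genes. At an unadjusted p under 0.05 edgeR listed 21 lincRNAs (6.77%) against 6.29% of all genes, 9 higher (background 2.85%) and 12 lower (background 3.44%). Without knockout replicate 2 the listing held 8 of 314 lincRNAs (2.55%, and 4.23% of all genes). The 3 values of one genotype lay wholly above the 3 of the other for 29 lincRNAs (9.35%, background 14.5%), with knockout higher in 11 (background 6.95%) and lower in 18 (background 7.57%). Over all 310, the shares of lincRNAs listed were close to the background, and those without overlap were below it. With a minimum of 300 counts for lincRNAs only, 14 of 120 were listed, 11.7% against 6.29% of all genes. The share of all genes had no such minimum, so these shares are not at like depth and show no excess of lincRNAs.

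Fitted values of the 310 spread around 0 on both sides, more widely than those of all genes tested. The median log2 fold change was 0.01, with quartiles at −0.23 and 0.23, where all genes had a median of −0.00078 and quartiles at −0.16 and 0.17. The fitted mean was higher in knockout for 157 and lower for the rest, from −2.27 to 1.34. Standard errors were smaller at greater depth. The median standard error was 0.45 for the 190 tested lincRNAs under 300 counts, 0.26 for the 100 from 300 to 3000, and 0.23 for the 20 above 3000, where all genes tested had 0.18. Of the 20 deepest, 2 were listed at an unadjusted p under 0.05, Gm26825 and Gm37494. The steadiest of the 20 was 5031425E22Rik, whose highest library was 1.25 times its lowest, and the most variable were Gm26825 (3.54) and Meg3 (3.50).

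**Figure D3:**
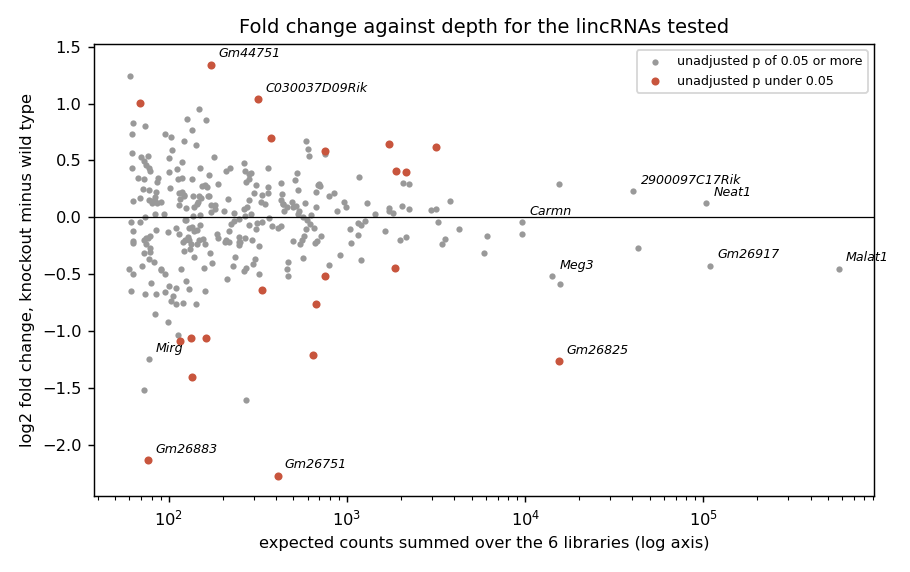
Log2 fold change (vertical axis, knockout minus wild type) against expected counts summed over the 6 libraries (log axis) for the 310 tested lincRNAs, red where the unadjusted edgeR p is under 0.05. The spread narrows from left to right, and Gm26825 at −1.27 stands apart among the deepest genes.

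The extreme library was often the same one. Wild-type replicate 1 was the highest library for 113 of the 317 (35.6%, and 32.1% of all genes) but the lowest for 52 (16.4%, and 32.5% of all genes). Knockout replicate 2 was the highest for 73 (23.0%, and 14.7% of all genes). Knockout replicate 1 was the lowest for 76 (24.0%, and 18.9% of all genes) and wild-type replicate 2 for 72 (22.7%, and 12.6% of all genes). Among the 20 deepest, wild-type replicate 1 was the highest in 13 and the lowest in 4, namely 1700020I14Rik, 2900097C17Rik, Gm20300 and Gm37494.

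Gm26825, the single lincRNA that DESeq2 called, was lower in every knockout library. It was at 211, 113 and 176 CPM in wild-type replicates 1 to 3 and 59.7, 85.2 and 62.8 CPM in knockout replicates 1 to 3. The lowest wild-type value lay above the highest knockout value. In edgeR the log2 fold change was −1.27 ± 0.23 SE (unadjusted p = 0.000392, adjusted p = 0.398). In DESeq2 it fell by 1.26 on the log2 scale (adjusted p = 0.000159), and leaving out each library in turn kept that call, with log2 fold changes from −1.47 to −1.06 and adjusted p-values from 6.14e-09 to 0.0445.

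The count of Gm26825 is uncertain, since its span holds a near copy of a coding gene. The gene spans 2107 bases at chr5:5781530-5783636 (plus strand). The processed pseudogene Gm15459, 1941 bases at chr5:5781615-5783555, lies wholly inside it on the minus strand. In GENCODE vM1, built on NCBIM37 and used for sequence only, the Gm15459 transcript aligned over all its 2078 bases, at 99.5% identity, to a transcript of Hspa8, the gene of the constitutive cytosolic chaperone. Against the Hspa8 coding sequence of 1941 bases it differed at 5. The windows below, read 5′ to 3′ along the coding strand of each and shown for how little separates the copies, have in capitals the first of those differing bases that has at least 14 bases on either side, at position 114 of the coding sequence.
Hspa8: ggtaaccgcaccacGccaagctatgttgc
Gm15459: ggtaaccgcaccacAccaagctatgttgc

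Pseudogene and parent gene had nearly the same values. Gm15459 was at 905, 698 and 1028 CPM in wild-type replicates 1 to 3 and 415, 549 and 409 CPM in knockout replicates 1 to 3 (−0.94 ± 0.18 SE, adjusted p = 0.413). Hspa8 was at 1010.2, 774 and 1084 CPM in wild-type replicates 1 to 3 and 457, 617 and 456 CPM in knockout replicates 1 to 3 (−0.91 ± 0.18 SE, adjusted p = 0.413). The counts of Gm15459 were 89.6%, 90.1% and 94.9% of those of Hspa8 in wild type and 90.8%, 89.0% and 89.8% in knockout. Those of Gm26825 were 20.9%, 14.6% and 16.2% of Hspa8 in wild type and 13.1%, 13.8% and 13.8% in knockout. Relative to Hspa8, Gm26825 was thus lower in each knockout library than in any wild-type one, and highest in wild-type replicate 1. Gm26825 had fractional counts in all 6 libraries. The part of Hspa8 reads in the value of Gm26825 was not tested, and its exons were not analysed here.

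Several low-abundance lincRNAs lay apart between the genotypes, without passing. Gm26883 (chr2:169633646-169888503, minus strand) overlaps Tshz2, a zinc finger gene on the other strand, and was at 0.951, 0.712 and 1.12 CPM in wild-type replicates 1 to 3 and 0.285, 0.135 and 0.214 CPM in knockout replicates 1 to 3. All knockout values were below all wild-type ones (−2.14 ± 0.47 SE, adjusted p = 0.489), on 76.5 counts in all. Gm26885, which overlaps the kinase gene Pim1 on the other strand, was at 8.14, 4.98 and 6.16 CPM in wild-type replicates 1 to 3 and 3.02, 3.73 and 4.48 CPM in knockout replicates 1 to 3 (−0.77 ± 0.25 SE, adjusted p = 0.719). Both had fractional counts in 5 of the 6 libraries. Gm17501 starts 331 bases from Cyr61, the gene of a secreted matricellular protein, and runs the other way. It was at 19.3, 15.8 and 14 CPM in wild-type replicates 1 to 3 and 11.5, 13.6 and 10.9 CPM in knockout replicates 1 to 3 (−0.44 ± 0.17 SE), and Cyr61 had a log2 fold change of −0.60 ± 0.24 SE, also without passing (adjusted p = 0.778).

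The other 4 named as lower did not pass either. AC131033.1 (−1.06 ± 0.36 SE), Gm15721 (−1.07 ± 0.37 SE) and Gm26660 (−1.09 ± 0.42 SE) had mean levels between 0.579 and 1.61 CPM in both genotypes, with no overlap. Gm15721 starts 154 bases from Mtus2, a gene of a microtubule-associated protein on the opposite strand, whose log2 fold change was −0.03. Gm26751, which overlaps Nynrin, was at 13.0, 1.53 and 2.52 CPM in wild-type replicates 1 to 3 and 0.171, 1.03 and 2.10 CPM in knockout replicates 1 to 3. Wild-type replicate 1 held most of its signal and the groups overlapped, and its value of −2.27 ± 0.88 SE became −0.83 without that library. Across these 8 the adjusted p ran from 0.398 to 0.775.

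Among the 8 named as higher in knockout, C030037D09Rik had the smallest p. This lincRNA (chr11:88718645-88728893, plus strand) was at 1.78, 1.73 and 1.16 CPM in wild-type replicates 1 to 3 and 2.73, 3.14 and 3.60 CPM in knockout replicates 1 to 3, with no overlap (1.04 ± 0.28 SE, unadjusted p = 0.00508, adjusted p = 0.598). It starts 132 bases from Msi2, an RNA-binding protein gene on the minus strand, whose own value was −0.23 ± 0.23 SE. B230354K17Rik (chr17:45433852-45442544, plus strand) starts 145 bases from the splicing factor gene Cdc5l and was at 6.54, 11.7 and 11.6 CPM in wild-type replicates 1 to 3 and 18.3, 14.9 and 13.8 CPM in knockout replicates 1 to 3 (0.65 ± 0.23 SE, adjusted p = 0.775). Cdc5l was at −0.06 ± 0.13 SE. In both pairs the lincRNA had a positive fitted value and the coding neighbour a negative one, none of which passed.

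The start regions of C030037D09Rik and B230354K17Rik, from 250 bases before to 50 after the RefSeq start on GRCm38.p6, are printed because each also holds the start of the coding neighbour. The first is at chr11:88718393-88718692 (plus strand) and the other at chr17:45433581-45433880 (plus strand). Capitals mark matches, on either strand, to CCAAT and GGGCGG.
C030037D09Rik: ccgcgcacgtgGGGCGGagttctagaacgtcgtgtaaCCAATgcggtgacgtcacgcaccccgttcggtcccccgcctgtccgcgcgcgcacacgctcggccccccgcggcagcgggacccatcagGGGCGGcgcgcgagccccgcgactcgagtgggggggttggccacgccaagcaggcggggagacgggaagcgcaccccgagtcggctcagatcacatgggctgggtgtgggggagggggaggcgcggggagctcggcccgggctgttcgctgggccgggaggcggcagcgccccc
B230354K17Rik: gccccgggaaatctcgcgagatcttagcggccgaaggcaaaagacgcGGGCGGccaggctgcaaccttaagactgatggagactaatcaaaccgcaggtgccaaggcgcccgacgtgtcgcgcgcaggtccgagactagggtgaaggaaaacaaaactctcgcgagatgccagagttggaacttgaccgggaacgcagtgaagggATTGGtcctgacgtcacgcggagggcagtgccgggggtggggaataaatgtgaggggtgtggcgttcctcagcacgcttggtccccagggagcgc
Neither window holds TATAAA. Among the 138 members with a RefSeq start region, CCAAT occurred in 37.7% (37.4% of all 32851 start regions), GGGCGG in 43.5% (35.7%) and TATAAA in 16.7% (13.6%). The CArG box, the element bound by serum response factor, occurred in only 5 members (3.62%, against 1.63%). The median number of CpG was 13, against 7. The 32851 start regions were not chosen by counts, as the members were, so the sets are unlike. A match describes letters in the window only.

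The remaining 6 with higher fitted values included 2 that overlap coding genes on the other strand. Gm17354 overlaps Cc2d1b and was at 2.20, 2.08 and 2.21 CPM in wild-type replicates 1 to 3 and 3.76, 3.82 and 2.99 CPM in knockout replicates 1 to 3 (0.70 ± 0.24 SE). Gm26776 overlaps Ccdc3 and was at 11, 15.4 and 14.6 CPM in wild-type replicates 1 to 3 and 16.9, 18.2 and 19.1 CPM in knockout replicates 1 to 3 (0.40 ± 0.16 SE), beside 0.23 ± 0.16 SE for Ccdc3. Neither pair of groups overlapped, and both had fractional counts. Gm37494, listed by RefSeq as the coding gene Gm33989, was at 12.5, 20.7 and 22.5 CPM in wild-type replicates 1 to 3 and 32.2, 33.0 and 21 CPM in knockout replicates 1 to 3 (0.62 ± 0.24 SE), where knockout replicate 3 lay among the wild-type values. Gm26614 (0.58 ± 0.25 SE) and Gm26624 (1.01 ± 0.42 SE) did not overlap between genotypes, and Gm44751 (1.34 ± 0.50 SE) did. Without knockout replicate 2, Gm26614 was at 0.26 and Gm44751 at 0.80, and without wild-type replicate 1 B230354K17Rik was at 0.43 and Gm37494 at 0.40. Adjusted p-values of the 8 ran from 0.598 to 0.778. Of the 16 named in either direction, which were picked for a small p and so tend to separate, 13 had no overlap (background 14.5%), 8 had fractional counts in at least 1 library, and 6 overlap a coding gene.

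**Figure D4:**
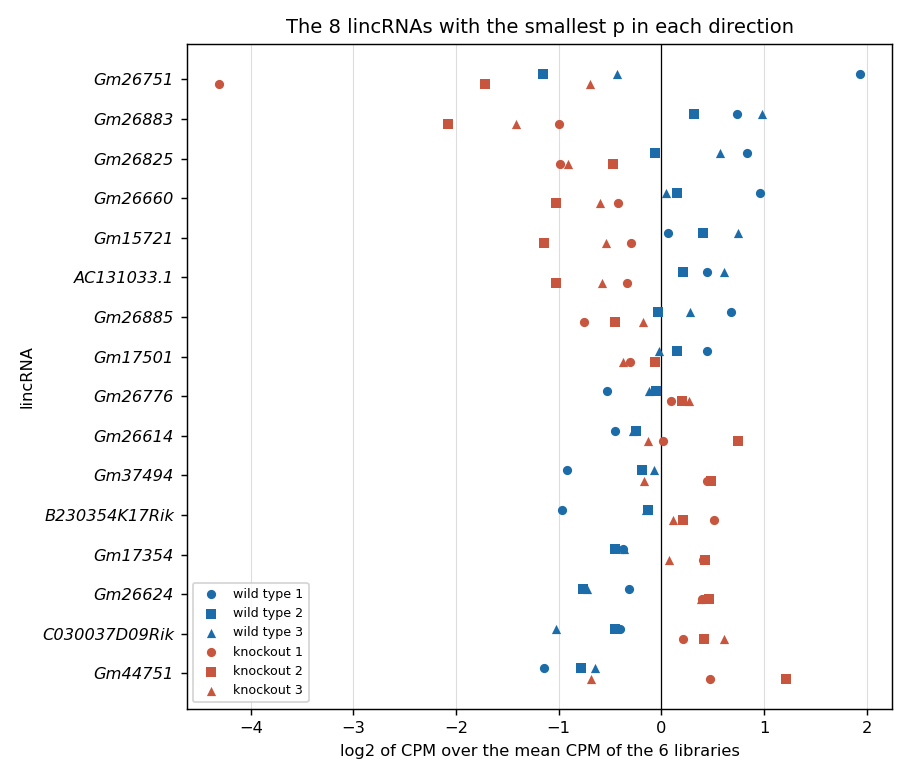
Log2 of each library's CPM over the mean CPM of the 6 libraries (horizontal axis) for the 16 lincRNAs named by their unadjusted p, 8 per direction, sorted by fold change. Points of the genotypes separate in 13 of these 16 genes picked for a small p, and in Gm26751 a single wild-type point lies far to the right.

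Imprinted lincRNAs of the Dlk1-Dio3 region on chromosome 12, which are expressed from the maternal chromosome, had lower fitted values in knockout. Of 10 imprinted genes listed, 3 were marked lincRNA and 2 were members, Meg3 and Mirg, and 0 of 2 passed (median −0.89, all genes −0.00078). Meg3 (chr12:109541001-109571726, plus strand) was at 220.0, 95.5 and 80.4 CPM in wild-type replicates 1 to 3 and 62.8, 126 and 86.8 CPM in knockout replicates 1 to 3. Its value of −0.52 ± 0.38 SE became 0.07 without wild-type replicate 1. Mirg, a microRNA host, was at 1.07, 1.02 and 0.525 CPM in wild-type replicates 1 to 3 and 0.228, 0.629 and 0.214 CPM in knockout replicates 1 to 3 (−1.25 ± 0.56 SE, unadjusted p = 0.0513, and −1.93 without knockout replicate 2). Rian, in between and not marked lincRNA in the table, was at 22.1, 7.78 and 7.04 CPM in wild-type replicates 1 to 3 and 5.64, 7.63 and 4.88 CPM in knockout replicates 1 to 3 (−1.01 ± 0.42 SE, unadjusted p = 0.0397, adjusted p = 0.778). Rtl1, a coding gene transcribed against them, was at 2.50, 0.203 and 0.490 CPM in wild type and 0.114, 0.494 and 0.392 CPM in knockout. Wild-type replicate 1 was the highest library for each of the 4.

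**Figure D5:**
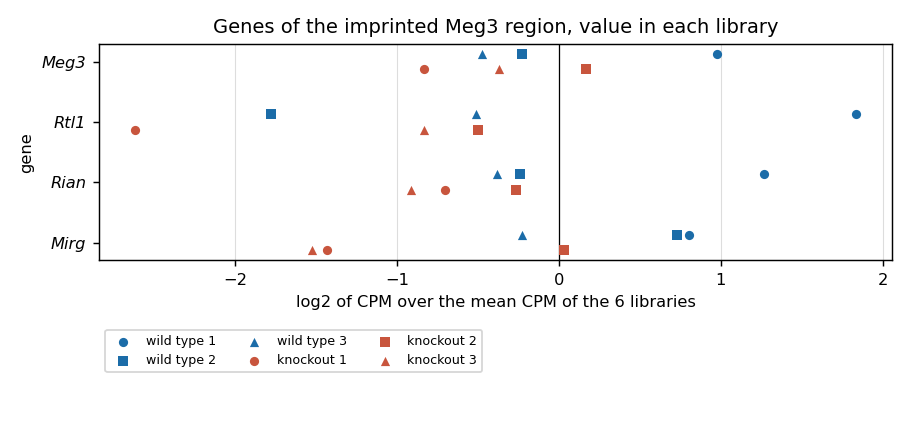
Log2 of each library's CPM over the mean CPM of the 6 libraries (horizontal axis) for the lincRNAs Meg3 and Mirg and their neighbours Rtl1 and Rian. The blue circle of wild-type replicate 1 is the rightmost point in each row.

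In the nuclear and X inactivation list, 5 of 11 genes were members, 0 of 5 passed, and 4 had a higher fitted value (median 0.13). Without wild-type replicate 3 that was 2 of 5 (median −0.01). Beside Malat1, Neat1 and 2900097C17Rik these were, as mean ± SD of 3 libraries, Ftx (4.61 ± 0.829 CPM in wild type and 5.57 ± 0.908 CPM in the knockout) and Jpx (0.658 ± 0.236 CPM in wild type and 0.658 ± 0.0720 CPM in the knockout), both known as activators of Xist. Listed genes of other biotypes in the table, such as Tug1 here and Gas5 among the lists below, are not members. Xist itself had 17 counts over the 6 libraries and was under the minimum. The differences of Ftx (0.28 ± 0.22 SE) and Jpx (0.03 ± 0.43 SE) did not pass.

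Hosts of small nucleolar RNAs, whose introns release RNAs that guide modification of ribosomal RNA, gave 7 members of 20 listed. None of the 7 passed, 6 had a lower fitted value, and the median was −0.16. Without wild-type replicate 1 the lower ones were 3 of 7 (median 0.03). Snhg18 was by far the most abundant at 94.5, 63.0 and 71.3 CPM in wild-type replicates 1 to 3 and 67.1, 70.6 and 68.7 CPM in knockout replicates 1 to 3 (−0.15 ± 0.15 SE). It starts 148 bases from Sema5a, an axon guidance gene, on the opposite strand. Snhg10 was the 1 host with no overlap, at 1.43, 0.915 and 0.875 CPM in wild-type replicates 1 to 3 and 0.569, 0.494 and 0.783 CPM in knockout replicates 1 to 3 (−0.77 ± 0.40 SE, adjusted p = 0.778). Snhg6 followed the pattern of Neat1, high in wild-type replicate 1 and knockout replicate 2 (5.77, 1.78 and 2.84 CPM in wild-type replicates 1 to 3 and 2.33, 5.79 and 2.81 CPM in knockout replicates 1 to 3). Snhg12 (−0.16), Snhg20 (−0.33), Dancr (−0.10) and Epb41l4aos (−0.31) overlapped between genotypes. Without wild-type replicate 1 Snhg20 was at −0.03 and Epb41l4aos at −0.06.

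Of the lincRNAs reported in vascular muscle and heart, 5 of 16 were members and 0 of 5 passed (2 higher and 3 lower, median −0.05). Without wild-type replicate 1, 5 of 5 had a higher fitted value (median 0.34), and without knockout replicate 2 the fitted value was higher for 1 and lower for 4 (median −0.37). Carmn, the smooth muscle RNA beside miR-143 and miR-145, was at 112, 64.2 and 51.9 CPM in wild-type replicates 1 to 3 and 62.6, 88.8 and 68.8 CPM in knockout replicates 1 to 3. The genotypes overlapped and the fitted value was −0.05 ± 0.27 SE (adjusted p = 0.973), but 0.34 without wild-type replicate 1. For comparison, the marker genes Acta2 and Myh11 were at −0.10 ± 0.15 SE and 0.18 ± 0.18 SE. H19, which is imprinted and listed with this group too, had 8 counts in all. In the p53 and growth control list 0 of 5 members passed (3 higher and 2 lower, median 0.13, 4 and 1 with median 0.47 without wild-type replicate 1, and 2 and 3 with median −0.03 without knockout replicate 2). Trp53cor1, known as lincRNA-p21, was at 0.467 ± 0.141 CPM (SD, n = 3) in wild type and 0.647 ± 0.296 CPM in the knockout (0.46 ± 0.49 SE), and its neighbour Cdkn1a, 12018 bases away, at −0.46 ± 0.28 SE. Without knockout replicate 2 Trp53cor1 was at 0.03. Pvt1, 47612 bases from the proto-oncogene Myc, was at 5.02 ± 0.654 CPM (SD, n = 3) in wild type and 4.72 ± 0.381 CPM in the knockout (−0.09 ± 0.19 SE), beside −0.70 ± 0.37 SE for Myc. Lncpint, a p53-induced RNA, was at 0.23 ± 0.25 SE, and at 0.05 without wild-type replicate 3 and 0.47 without wild-type replicate 1.

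Some members are precursors of microRNAs. The search for hairpins left out some members, so its count is not one over all 317. Among the members searched, on the same strand and by RefSeq coordinates, 11 span at least 1 microRNA hairpin, with 14 in Mirg and 6 in Mir17hg. Mir17hg (chr14:115042879-115046727, plus strand), host of the growth-linked miR-17 cluster, was at 1.19, 2.14 and 3.29 CPM in wild-type replicates 1 to 3 and 3.30, 3.32 and 2.53 CPM in knockout replicates 1 to 3 (0.44 ± 0.36 SE, adjusted p = 0.786), lowest in wild-type replicate 1. The value was 0.15 without that library and 0.86 without wild-type replicate 3. Its main mature products, from RefSeq on GRCm38.p6, are printed to show the shared seeds, in capitals (bases 2 to 8). The first pair has one seed, the next pair another, and the last 2 one each.
miR-17-5p: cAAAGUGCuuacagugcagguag
miR-20a-5p: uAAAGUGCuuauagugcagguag
miR-19a-3p: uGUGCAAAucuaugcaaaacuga
miR-19b-3p: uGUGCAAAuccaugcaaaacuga
miR-18a-5p: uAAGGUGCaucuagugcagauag
miR-92a-3p: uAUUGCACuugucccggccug

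Further hosts, as mean ± SD of 3 libraries, were 4833445I07Rik, which spans Mir191 and Mir425 (3.05 ± 0.327 CPM in wild type and 3.4 ± 0.901 CPM in the knockout), 6720427I07Rik, which spans Mirlet7d (1.1 ± 0.234 CPM in wild type and 1.12 ± 0.124 CPM in the knockout), and E130102H24Rik, which spans Mir101a (0.846 ± 0.452 CPM in wild type and 0.956 ± 0.201 CPM in the knockout). None of the 11 passed. Carmn, which is on the list of microRNA hosts, was among the members not searched for hairpins, and it did not pass either. The listed host Mir155hg had 37 counts over the 6 libraries and was under the minimum. The mature microRNAs were not analysed here.

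No member lies within 1 Mb of the targeted gene. The nearest to Mir21a was C030037D09Rik, 2134487 bases away on the same chromosome. Scpep1, a coding gene farther along chromosome 11, was at 225 ± 7.88 CPM (SD, n = 3) in wild type and 132 ± 3.08 CPM in the knockout. Its log2 fold change was −0.77 ± 0.11 SE (edgeR adjusted p = 0.219). Whether position on the targeted chromosome has a part in either value was not tested. The mature guide of Mir21a is printed with its seed in capitals, followed by 4 full or partial seed matches in abundant or host lincRNAs, in capitals. The stretches of Malat1 and Meg3 hold TAAGCTA, which matches the seed except its last base and ends in an added A. Those printed for 1700020I14Rik and Mir17hg hold ATAAGCT, which matches the whole seed.
miR-21a-5p: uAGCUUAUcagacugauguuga
Malat1: aactctaaactTAAGCTAatagagtagct
Meg3: cagcggagtgtTAAGCTAggcttcgcaat
1700020I14Rik: aagtgaatgtgATAAGCTtgtggccagtg
Mir17hg: cccccttgggtATAAGCTgtaattgatgt

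Matches to ATAAGCT or TAAGCTA, alone or joined as ATAAGCTA, were searched on the transcript strand of the 105 members with a matched GENCODE vM1 transcript. They occurred in 14 members (13.3%), against 14.8% of the 1273 lincRNA genes of that annotation, whose median exon length was 1960 bases against 2235 for the members. Malat1, Meg3 and Pvt1 held 1 each, 1700020I14Rik 2 and Mir17hg 3. Of the 14 with a match, 5 had a higher fitted value in knockout, with log2 fold changes from −0.52 to 0.44 and a median of −0.08. Of the 89 tested without one, 40 were higher, with a median of −0.10. Members with a match were longer (median 3770 bases, against 2112). A match is a description of letters and not of binding.

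Despite their name, many members touch other genes. Of the 317, 143 overlap another gene of the table. On the opposite strand 83 overlap a protein-coding gene, and on the same strand 18. The median gap to the nearest coding gene was 1028 bases, with 199 members within 5 kb and 32 more than 100 kb away. In 49 (15.5%) the nearest coding start lay on the opposite strand, within 1 kb and upstream of the member's own start. Opposite-strand starts within 1 kb on the downstream side are not in this count. Fold changes of members and their nearest coding gene showed little relation across 293 pairs (Pearson r = 0.10, the same sign in 54.6%), as a description over genes that share the 6 libraries. In the 49 divergent pairs r was 0.19, and 25 had the same sign. Counts were fractional in at least 1 library for 116 members (36.6%), against 48.4% of all genes tested.

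Annotation differed between sources. RefSeq matched 176 members, 4 of them by position, and lists 163 as long noncoding RNA, 9 as protein-coding and the other 4 as pseudogenes. The 9 were 1810058I24Rik, 4732487G21Rik, D930016D06Rik, Gm37494, Gm38399, Gm46430, Gm5784, Tmem250-ps and Zfp469. GENCODE vM1 marked 12 of the 105 members compared as coding. Of those 105, 32 shared a stretch of at least 100 bases and 95% identity with a transcript of another coding gene, 23 on the opposite strand and 9 on the same strand. Examples are Gm17275, which runs antisense through 644 bases of the histone gene H3f3a, and Gm10874, which aligned antisense to the mitochondrial enzyme gene Got2 over 1637 bases and overlaps the pseudogene Got2-ps1. By symbol, 165 members were Gm models, 90 Rik clones and 26 unnamed clones, names that record a gene model or clone and not a function. They lay on 20 chromosomes, most often on chromosome 5 (31) and least often on chromosomes 19 and X (6 each).

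At the edge of the choice, Gm15473 and Gm27030 had 60 counts each and entered, while Gm4349 with 59.98 and Gm26668 with 59.02 did not. Gm15473, which starts beside the cytoskeletal gene Tes, was at −0.46 ± 0.53 SE, and Gm27030 did not pass the low-count filter.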

How the data were processed

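Values are the authors' expected counts for each gene, without normalisation, as judged from the deposited numbers: 65.4% were whole within 0.01, and totals differed between the 6 libraries. Per the submitters' processing notes STAR 2.6, DESeq2 and the build mm10 were used, and per the labels' protocols libraries came from Trizol RNA with the TruSeq RNA kit. For the counting tool, annotation and strand setting, the sources used here give nothing. Stop coordinates in the file exceeded the gene ends by 1 and were corrected, so positions are 1-based on mm10.

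Expected counts were rounded, filtered with filterByExpr, scaled with TMM and fitted over all genes with edgeR 4.0.16's quasi-likelihood test (robust dispersions and fit, R 4.3.3), 2-sided, with no replicate block and Benjamini-Hochberg adjustment over the 15185 genes. The threshold was 0.05. DESeq2 1.42.0 and limma 3.58.1 (voom) were alternatives, and the code was tested on simulated data. SE is the size of the fold change over the square root of F, and CPM are TMM-scaled. Named were the 10 lincRNAs with the most counts, members of the lists, the 8 with the smallest p in each direction at a mean of at least 0.5 CPM, those within 1 Mb of Mir21a, and the 2 on each side of the minimum. The other genes and hosts were named after their values were seen. The members and lists were chosen with earlier results of these data known. Genes whose symbols read as dates are not named. MicroRNA and start region sequences are RefSeq's on GRCm38.p6, and transcripts are GENCODE vM1's on NCBIM37, used without coordinates. Stretches shared with coding transcripts were found with blastn.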

Additional observations from a re-analysis of the deposited data

How the results depend on the processing

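The count of lincRNAs called was 0 in edgeR under each setting tried and in limma voom, and 1 in DESeq2, where leaving out each library in turn (chosen after seeing the data) gave 1 each time, Gm26825, at −1.26 with all libraries. With a library left out, the listing at an unadjusted p under 0.05 ran from 8 to 24 (2.55% to 7.62% of lincRNAs, and 3.93% to 8.19% of all genes) and the count without overlap from 55 to 62 (17.4% to 19.7%, and 20.8% to 27.8% of all genes), where fewer samples separate more easily. With a member minimum of 300 counts, 13 of 120 lincRNAs had no overlap (10.8%, and 14.5% of all genes) and 14 were listed (11.7%, and 6.29% of all genes). The minimum was not applied to all genes, so those shares are not at like depth. Without Malat1 the mean share was 0.410% in wild type and 0.383% in knockout. Single lincRNAs were followed under the settings for 40 named members only, many of them picked for a small p. Among these 40, leaving out 1 library turned the sign of 11, with log2 fold changes from −0.013 to 0.38 for 2900097C17Rik, −0.26 to 0.34 for Carmn, −0.33 to 0.42 for Dancr, −0.24 to 0.30 for Jpx, −0.70 to 0.10 for Malat1, −0.81 to 0.065 for Meg3, −0.37 to 0.55 for Neat1, −0.18 to 0.0014 for Pvt1, −0.37 to 0.12 for Snhg12, −0.26 to 0.034 for Snhg18 and −0.41 to 0.65 for Snhg6. With limma voom Carmn was at 0.019 and Dancr at 0.062. None of these passed under any setting, and the cause was not tested. Deviations of same-numbered samples from their group means correlated at −0.27, −0.18 and −0.08. With means of only 3 samples, these values cannot show whether replicate numbers pair the samples. With the replicate block edgeR called 0 lincRNAs, listed 17 at an unadjusted p under 0.05 (5.48%, and 3.77% of all genes), and put Carmn at 0.020. The other 497 values of the 40 lincRNAs under alternatives kept their direction and their side of the threshold, though some moved by over 1.5 times. Whether depth limited the calls was not tested: median standard errors were 0.45 under 300 counts and 0.23 above 3000, and edgeR called 0 in both ranges.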
